A study of Homo sapiens with 12 samples.

Results

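The genes described here encode the machinery that sets the phosphorylation of eIF2α: the 4 kinases *EIF2AK1*, *EIF2AK2*, *EIF2AK3* and *EIF2AK4*, their activators *GCN1*, *DELE1* and *OMA1*, the inhibitor *IMPACT*, and the PP1 regulatory subunits *PPP1R15A* and *PPP1R15B*. They were chosen by symbol for their known roles, at a time when earlier results of these data were known. Each of the 10 symbols was found among the 43236 counted in every library. All 10 had enough counts to enter the test, which covered 15979 genes. The measurements are mRNA levels and hold no information on the amount, activity or phosphorylation of a protein.

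MNNG/HOS is an osteosarcoma cell line, a transformed derivative of HOS, and every library comes from this 1 line, labelled HOS-MNNG. The cells received DMSO, the solvent control, for 6 h, 300 nM NXP800 for 6 h, DMSO for 24 h or 300 nM NXP800 for 24 h, with 3 libraries for each of the 4 conditions. The dose is taken from the methods of the study. The study states for its data as a whole that they rest on independent experiments and calls these libraries replicates, while no label says of them that they come from separate cultures. A p-value therefore measures the spread between these libraries, which may be in part technical.

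Counts on genes lay between 30810614 and 31947656 per library. Reads that fell on no annotated gene took 6.66 to 8.14% of a library at 6 h and 2.73 to 3.67% at 24 h, so NXP800 is compared with DMSO within a time point. The difference between the responses at 24 h and 6 h and the correlations over all libraries do set the times against each other. Whether treatment time or another difference between the libraries of the times underlies them was not tested. *RUNX2*, the transcription factor of the osteoblast lineage, was found at 20.7 to 42.5 CPM (read counts scaled to library size) and *COL1A1*, a collagen of bone, at 143 to 566 CPM. The other bone markers examined, apart from *SPARC* at 91.7 to 615 CPM, were at or near 0, with at most 1 count of *SP7* and of *IBSP*, 2 of *BGLAP*, 7 of *ALPL* and 12 of *COL1A2* in any library. The leukocyte gene *PTPRC* reached at most 5 counts, the endothelial gene *PECAM1* at most 29 and the epithelial gene *CDH1* at most 2, while the epithelial gene *EPCAM* lay between 5.59 and 10.2 CPM.

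Translation initiation needs eIF2 to bring the initiator tRNA to the ribosome, and phosphorylation of its alpha subunit turns eIF2 into an inhibitor of eIF2B, the factor that recharges it with GTP. Each kinase senses a stress of its own: HRI (*EIF2AK1*) heme shortage and mitochondrial stress relayed by OMA1 and DELE1, PKR (*EIF2AK2*) double-stranded RNA, PERK (*EIF2AK3*) unfolded proteins in the endoplasmic reticulum, and GCN2 (*EIF2AK4*) uncharged tRNA and stalled ribosomes with the help of GCN1, which IMPACT competes for. GADD34 (*PPP1R15A*) and CReP (*PPP1R15B*) direct protein phosphatase 1 to eIF2α and so reverse the mark, GADD34 as an inducible subunit and CReP as a constitutive one.

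The upstream sequences were searched because members of this group are known targets of the factors that act downstream of the kinases or of interferon. RefSeq promoter windows of GRCh38.p14, 250 bases before and 50 after the start, were matched by symbol for 9 of the 10 genes, all but *EIF2AK1*. For *EIF2AK3* the 250 bases, 88627465 to 88627714 on chromosome 2, lie inside the span given for the gene below. That window is therefore not upstream of the start of this span. The 5 motifs, searched on both strands, were the C/EBP-ATF response element core TGATGNAA, the ATF/CRE core TGACGTCA, the interferon-stimulated response element core GAAANNGAAA, the ER stress response element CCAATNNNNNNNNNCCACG and the unfolded protein response element core TGACGTGG, which shares its first letters with the ATF/CRE core. Windows of 3 of the 9 genes held a match, and the 250 bases before the start of these 3 are shown, 5′ to 3′ on the strand of the gene, with the matched letters in capitals.

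PPP1R15A, chr19:48872171-48872420, plus strand: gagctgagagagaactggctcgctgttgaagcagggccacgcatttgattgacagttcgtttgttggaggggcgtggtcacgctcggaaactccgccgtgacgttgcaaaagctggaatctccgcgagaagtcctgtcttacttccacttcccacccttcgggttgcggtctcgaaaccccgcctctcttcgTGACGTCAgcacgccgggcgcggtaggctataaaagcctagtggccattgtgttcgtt

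PPP1R15B, chr1:204411818-204412067, minus strand: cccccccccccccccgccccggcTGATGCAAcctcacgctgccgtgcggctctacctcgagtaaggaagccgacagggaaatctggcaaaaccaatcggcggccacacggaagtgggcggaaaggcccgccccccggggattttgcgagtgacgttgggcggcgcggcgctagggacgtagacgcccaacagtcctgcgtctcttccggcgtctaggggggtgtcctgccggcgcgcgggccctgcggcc

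EIF2AK2, chr2:37156981-37157230, minus strand: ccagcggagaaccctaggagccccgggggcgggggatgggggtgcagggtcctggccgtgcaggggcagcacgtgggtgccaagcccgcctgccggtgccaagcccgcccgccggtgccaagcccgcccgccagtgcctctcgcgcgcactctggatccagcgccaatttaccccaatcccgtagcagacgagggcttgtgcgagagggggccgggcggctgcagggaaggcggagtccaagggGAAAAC

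The window of *PPP1R15A* held TGACGTCA beginning 58 bases before the start, a motif found in 1.85% of all 35116 windows of this length. In *PPP1R15B* the match was TGATGCAA, 227 bases before the start, and TGATGNAA was in 3.62% of all windows. The match in *EIF2AK2*, GAAAACGAAA, began 6 bases before the start and ran past it, so only the letters before the start are in capitals above. GAAANNGAAA was in 3.57% of all windows. The ER stress response element, in 0.0769% of all windows, and TGACGTGG, in 0.729%, matched in none of the 9. A match describes these letters and is no evidence that a factor binds there.

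At 6 h NXP800 raised the mRNAs of both phosphatase subunits, of *DELE1* and of *IMPACT*, lowered those of 3 of the 4 kinases, and left 3 members without a call. A call here is a Benjamini-Hochberg adjusted p below 0.05 in edgeR's quasi-likelihood test over all tested genes. Thus 4 members rose and 3 fell, 7 of 10 in all, where 52.8% of all tested genes were called, 25% higher and 27.8% lower. At 24 h 6 members rose and 2 fell, with *EIF2AK2* and *EIF2AK3* now among those that rose, against a background of 56%, of which 27.5% higher and 28.6% lower. With scaling by library size only, 58.7% of the 24 h calls over all genes were higher, in place of 49%. The response at 24 h was above that at 6 h for 2 members and below it for 1, where the difference of the responses was called for 25.8% of all tested genes, 12% higher and 13.8% lower. Over all genes that was 4129 calls, and 6284 with the replicate block, which left the members' counts for the difference at 2 and 1. The same scaling put the share of higher calls for this difference at 59.6% in place of 46.6%. Treated and control libraries did not overlap for 7 of 10 members at 6 h and for 7 of 10 at 24 h, beside 62% and 59.1% of all tested genes. Whether the members' shares exceed these backgrounds was not tested. *PPP1R15A* was the member that changed by more than 2-fold, and its change stood at the 99.4th percentile of all tested genes at 6 h and at the 98.8th at 24 h. By size regardless of sign, the other called changes lay lower. They ran from percentile 42.5 of all tested genes (*PPP1R15B* at 24 h) to 75.7 (*PPP1R15B* at 6 h). The median size of the log2 fold change over all tested genes was 0.342 at 6 h and 0.382 at 24 h.

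**Figure D1:**
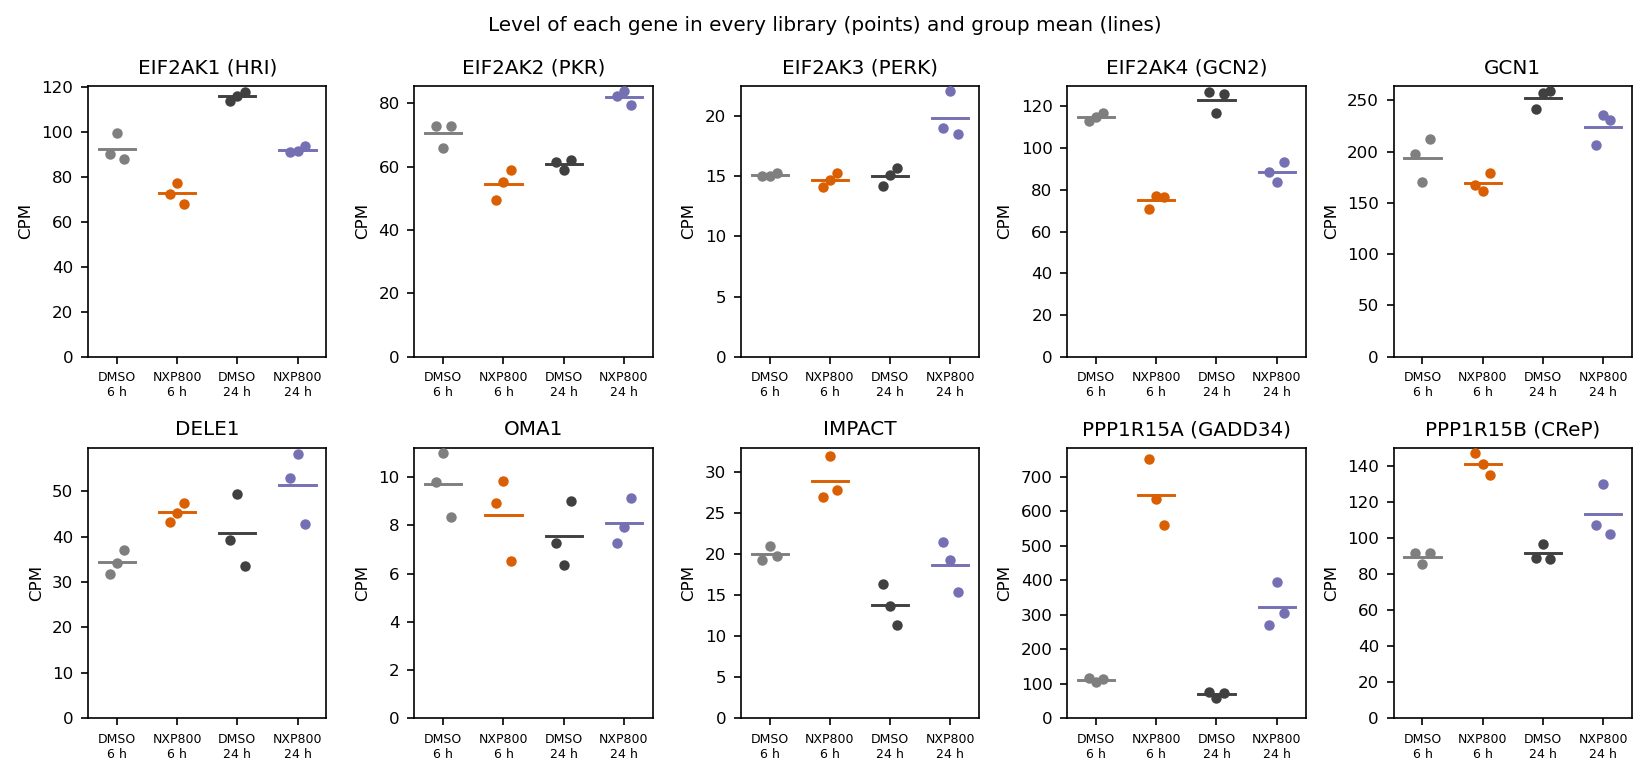
Level of each member in CPM (y axis, from 0) in the 12 libraries, by condition on the x axis. Points are libraries and lines the means of 3. The NXP800 libraries of *PPP1R15A* sit between 561 and 750 CPM at 6 h, far above its controls, and those of *EIF2AK2* lie below the controls at 6 h and above them at 24 h.

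Among the kinases, *EIF2AK4* and *EIF2AK1* fell at both times, whereas *EIF2AK2* fell at 6 h and rose at 24 h, and *EIF2AK3* rose at 24 h. None of the 4 rose at 6 h in edgeR's test, with 0 at an unadjusted p below 0.05 and 0 in DESeq2's test, and 3 fell. At 24 h 2 rose and 2 fell. Beside these counts, 25% of all tested genes were higher and 27.8% lower at 6 h, and 27.5% and 28.6% at 24 h.

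*EIF2AK4* encodes GCN2 and lies on chromosome 15, 39934115 to 40035591 on the plus strand of GRCh38.p14. *EIF2AK4* measured 113, 115 and 117 CPM in DMSO libraries at 6 h and 70.7, 77.3 and 76.8 CPM in NXP800 libraries. At 24 h its control libraries gave 127, 117 and 126 CPM and the treated ones 88.7, 83.9 and 93.2 CPM. Every treated library was below every control of its time. The log2 fold change was -0.62 (SE 0.061, n = 3 per group, edgeR adjusted p = 4.31e-07) at 6 h and -0.48 (SE 0.061, edgeR adjusted p = 5.21e-06) at 24 h, so that the level fell by 34.9% and by 28.3%. The difference between the responses was 0.14 (95% interval -0.04 to 0.32, edgeR adjusted p = 0.253).

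*EIF2AK1*, the gene of HRI, lies on chromosome 7, 6022247 to 6059175 on the minus strand, and 9.69% of its exonic bases overlap *AIMP2* on the other strand, whose reads can be told apart only if the counting used strand. *EIF2AK1* gave 90.2, 99.7 and 88 CPM in controls and 72.6, 77.2 and 68.2 CPM under NXP800 at 6 h. By 24 h the values were 114, 116 and 118 CPM in controls and 91, 91.6 and 93.9 CPM in treated libraries. The groups did not overlap at either time. It fell by 0.35 on the log2 scale (SE 0.063, edgeR adjusted p = 0.000217) at 6 h and by 0.33 (SE 0.063, edgeR adjusted p = 0.000303) at 24 h. The difference between the responses was 0.02 (95% interval -0.17 to 0.21, edgeR adjusted p = 0.902).

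*EIF2AK2*, which encodes PKR and is itself an interferon-stimulated gene, lies on chromosome 2, 37099210 to 37156980 on the minus strand, with 3.95% of its exonic bases overlapping genes of the other strand. *EIF2AK2* stood at 72.8, 66 and 72.9 CPM in controls and at 49.4, 55 and 58.8 CPM under NXP800 at 6 h. The 24 h controls held 61.5, 58.8 and 62.1 CPM and the 24 h treated libraries 82.4, 83.7 and 79.4 CPM. Both contrasts were without overlap and in opposite directions. The fall of 22.9% at 6 h had a log2 fold change of -0.38 (SE 0.069, edgeR adjusted p = 0.000259), and the gain of 34.5% at 24 h one of 0.43 (SE 0.069, edgeR adjusted p = 6.12e-05). The difference of the responses was 0.80 (SE 0.097, 95% interval 0.60 to 1.01, edgeR adjusted p = 2.5e-05), larger in size than for 84.1% of all tested genes.

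*EIF2AK3*, the gene of PERK, lies on chromosome 2, 88556741 to 88628145 on the minus strand, with 3.77% of its exonic bases overlapping a non-coding gene of the other strand. *EIF2AK3* gave 15, 15 and 15.3 CPM in controls and 14.1, 14.7 and 15.3 CPM in treated libraries at 6 h, which overlapped. After 24 h it gave 14.2, 15.1 and 15.7 CPM in controls and 19, 22.1 and 18.5 CPM under NXP800, without overlap. It was the kinase with the fewest reads, 423 to 706 per library. The log2 fold change was -0.04 at 6 h (SE 0.088, edgeR adjusted p = 0.739) and 0.41 at 24 h (SE 0.087, edgeR adjusted p = 0.000816), a gain of 32.7%. The response at 24 h exceeded that at 6 h by 0.45 (SE 0.12, edgeR adjusted p = 0.0145).

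**Figure D2:**
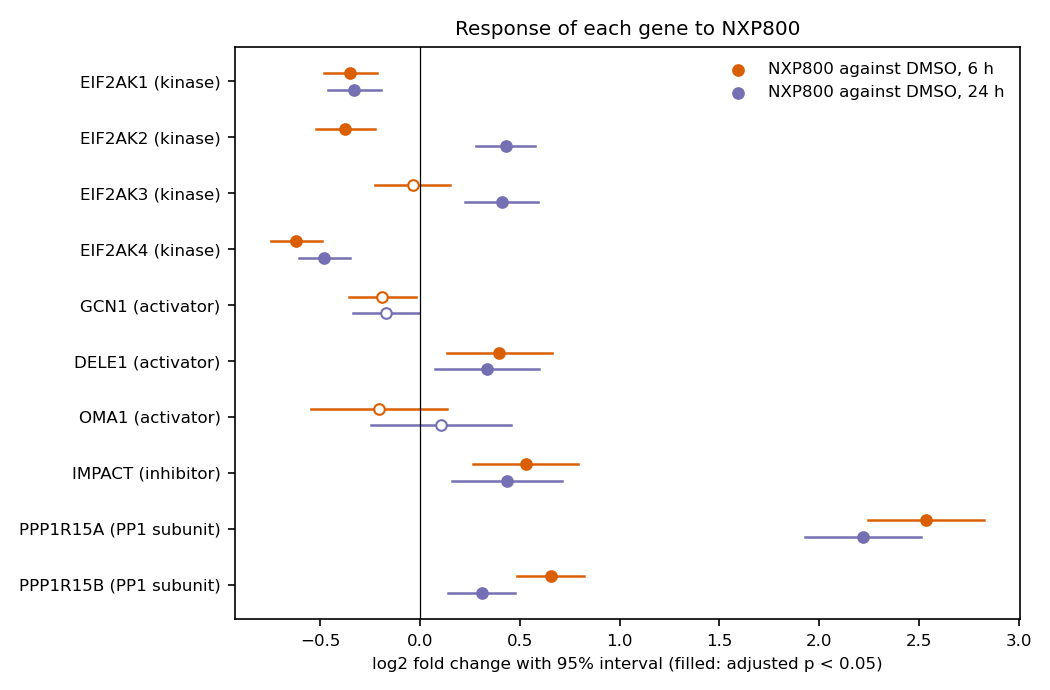
Log2 fold change of NXP800 against DMSO (x axis) for the 10 members (y axis), with 95% intervals not adjusted for the number of genes. Filled points passed the adjusted threshold. *EIF2AK2* lies at -0.38 at 6 h and at 0.43 at 24 h, while *EIF2AK4* lies below 0 and *IMPACT*, *DELE1* and the phosphatase subunits above 0 at both times.

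Per kilobase of transcript, the kinases differed widely in level, and the mixture shifted with treatment. Using the length of the canonical transcript, the level in DMSO at 6 h was 21 ± 1.41 CPM per kb for *EIF2AK1* (SD, n = 3), 20.8 ± 0.354 for *EIF2AK4*, 7.07 ± 0.397 for *EIF2AK2* and 3.32 ± 0.0344 for *EIF2AK3*. The libraries of *EIF2AK1* and *EIF2AK4* overlapped, and the other kinases were each apart. Summed over the 4 genes, the level was 52.2 ± 0.955 CPM per kb in DMSO and 38.7 ± 1.47 under NXP800 at 6 h, and 58 ± 1.31 and 49.5 ± 0.592 at 24 h.

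As a share of this sum, *EIF2AK4* went from 39.8% in DMSO to 35% under NXP800 at 6 h and from 38.5% to 32.3% at 24 h. The share of *EIF2AK2* was 13.6% and 14.1% at 6 h, with overlapping libraries, and 10.5% and 16.6% at 24 h, without overlap. *EIF2AK3* went from 6.37% to 8.37% and from 5.7% to 8.86%. At 6 h its own level was 3.32 CPM per kb in DMSO and 3.24 under NXP800, while the sum was lower under NXP800. *EIF2AK1* held 40.2% and 42.6% at 6 h, with overlapping libraries, and 45.3% and 42.2% at 24 h, without overlap. These are descriptions and depend on the length used. With all annotated exons of a gene joined, which makes *EIF2AK3* 20.7 kb long in place of 4.54 kb, the DMSO shares at 6 h were 50.2% for *EIF2AK1*, 28.6% for *EIF2AK4*, 19.1% for *EIF2AK2* and 2.17% for *EIF2AK3*. Under NXP800 at 24 h this length put *EIF2AK2* at 22.8% and *EIF2AK4* at 22.7%, with overlapping libraries, so *EIF2AK4* no longer stood above *EIF2AK2*.

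**Figure D3:**
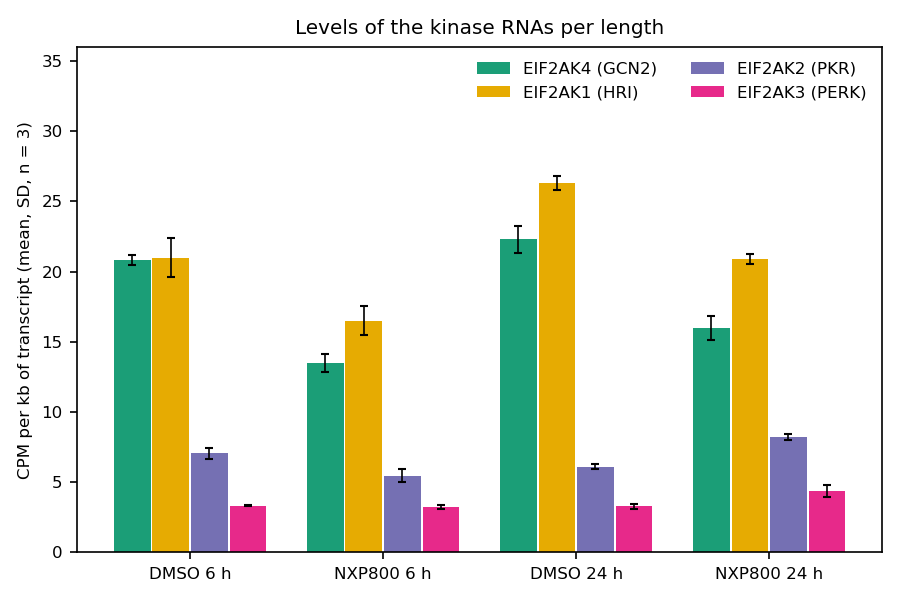
Level of the 4 kinase mRNAs in CPM per kb of canonical transcript (y axis, from 0) in the 4 conditions (x axis). Bars are means of 3 libraries and whiskers the SD. *EIF2AK1* and *EIF2AK4* stand above *EIF2AK2* and *EIF2AK3* in each condition. At 24 h *EIF2AK2* is at 8.2 CPM per kb under NXP800, beside 6.1 in DMSO.

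Of the activators, *DELE1* rose at both times, and *GCN1* and *OMA1* passed the threshold at neither. None of the 3 fell in edgeR's test at 6 h, where 1 was lower at an unadjusted p below 0.05 and 0 in DESeq2's test, and the same counts held at 24 h. Beside these counts, 27.8% of all tested genes were called lower at 6 h and 28.6% at 24 h, and 25% and 27.5% higher.

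*GCN1*, whose product binds GCN2 and stalled ribosomes, lies on chromosome 12, 120127202 to 120194715 on the minus strand. *GCN1* measured 198, 170 and 212 CPM in controls and 167, 162 and 179 CPM under NXP800 at 6 h. Those of 24 h were 241, 257 and 259 CPM in controls and 206, 236 and 231 CPM in treated libraries. The groups overlapped at 6 h through the DMSO library of replicate 2 and were apart at 24 h. Its log2 fold change was -0.19 (SE 0.079, edgeR adjusted p = 0.0537) at 6 h and -0.17 (SE 0.079, edgeR adjusted p = 0.0765) at 24 h. Treated libraries were lower than the control of the same replicate number in 3 of 3 pairs at each time, and a fit that blocks on replicate number gave an adjusted p of 0.00329 at 6 h (log2 fold change -0.185) and 0.00506 at 24 h (-0.172). The 6 h value passed the threshold without the DMSO library of replicate 2 (-0.275, adjusted p = 0.00754) and without the NXP800 library of replicate 3 (-0.228, adjusted p = 0.0473). When offsets for GC content and length were added to the block, an alternative chosen after seeing the data, the 6 h value was -0.035 (adjusted p = 0.489) and the 24 h value -0.125 (adjusted p = 0.0145).

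*DELE1*, the mitochondrial messenger that binds and activates HRI, lies on chromosome 5, 141923871 to 141942047 on the plus strand. *DELE1* was found at 31.8, 34.3 and 37.1 CPM in controls and at 43.3, 45.3 and 47.4 CPM under NXP800 at 6 h, without overlap. At 24 h the controls spread from 33.5 through 39.3 to 49.3 CPM and the treated libraries from 42.8 through 53 to 58.3 CPM, and the groups overlapped. Each treated library exceeded the control of the same number, in 3 of 3 pairs. On the log2 scale the change was 0.40 (SE 0.12, edgeR adjusted p = 0.0126) at 6 h and 0.34 (SE 0.12, edgeR adjusted p = 0.0281) at 24 h. Without the DMSO library of replicate 1 the 6 h value was 0.342 (adjusted p = 0.0569). The call at 24 h was lost without the DMSO library of replicate 1 (0.31, adjusted p = 0.0741) or 3 (0.214, adjusted p = 0.153), and without the NXP800 library of replicate 1 (0.314, adjusted p = 0.0722) or 2 (0.261, adjusted p = 0.108).

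*OMA1*, the mitochondrial protease that cleaves DELE1, lies on chromosome 1, 58480719 to 58546726 on the minus strand, and 6.91% of its exonic bases overlap *DAB1* on the same strand. It was the least counted member, with 189 to 350 reads in a library and a counting error of at most 6.7% of the group mean. *OMA1* measured 9.79, 11 and 8.35 CPM in controls and 8.93, 9.85 and 6.51 CPM under NXP800 at 6 h, then 7.26, 6.36 and 9.03 CPM in controls and 7.26, 7.93 and 9.13 CPM under NXP800 at 24 h. The groups overlapped at both times. The log2 fold change was -0.21 (95% interval -0.55 to 0.14, edgeR adjusted p = 0.3) at 6 h and 0.10 (95% interval -0.25 to 0.45, edgeR adjusted p = 0.613) at 24 h. Within same-number pairs the 6 h differences were -0.132, -0.164 and -0.36, lower in 3 of 3 pairs, and the fit that blocks on replicate number gave -0.212 (SE 0.091, adjusted p = 0.0502), at the edge of the threshold. With the block and the GC and length offsets, the 6 h value was -0.357 (adjusted p = 0.00217) and the difference of the responses 0.439 (adjusted p = 0.0118).

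*IMPACT*, which competes with GCN2 for GCN1, was higher under NXP800 at both times. It lies on chromosome 18, 24426670 to 24453531 on the plus strand. *IMPACT* gave 19.3, 21 and 19.7 CPM in controls and 26.9, 31.9 and 27.8 CPM in treated libraries at 6 h, all of them above the controls. After 24 h its controls gave 16.3, 13.7 and 11.4 CPM and the treated libraries 21.4, 19.3 and 15.3 CPM. These groups overlapped by the treated library of replicate 3, while 3 of 3 same-number pairs were higher. This gave log2 fold changes of 0.53 (SE 0.12, edgeR adjusted p = 0.00205) at 6 h and 0.43 (SE 0.13, edgeR adjusted p = 0.00949) at 24 h. The 24 h call was lost without the DMSO library of replicate 3 (0.313, adjusted p = 0.058) and without the NXP800 library of replicate 1 (0.327, adjusted p = 0.0563).

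The phosphatase subunits both rose at both times, *PPP1R15A* much more than *PPP1R15B*. *PPP1R15A* lies on chromosome 19, 48872421 to 48876058 on the plus strand, just after the upstream sequence with TGACGTCA. *PPP1R15A* went from 117, 105 and 114 CPM in controls to 750, 634 and 561 CPM under NXP800 at 6 h. At 24 h it went from 76.5, 57.9 and 73.4 CPM to 270, 394 and 305 CPM. The lowest treated library was far above the highest control at both times. Its log2 fold change was 2.54 (SE 0.14, edgeR adjusted p = 6.39e-10), a 5.8-fold rise, at 6 h and 2.22 (edgeR adjusted p = 1.77e-09), a 4.66-fold rise, at 24 h. The difference of the responses was -0.31 (SE 0.19, 95% interval -0.71 to 0.08, edgeR adjusted p = 0.235). Without the NXP800 library of replicate 2 at 24 h it was -0.486 (adjusted p = 0.0404).

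*PPP1R15B* lies on chromosome 1, 204395826 to 204411817 on the minus strand, and 5.6% of its exonic bases overlap a non-coding gene of the other strand. *PPP1R15B* measured 91.5, 85.6 and 91.8 CPM in controls and 147, 141 and 135 CPM under NXP800 at 6 h. At 24 h the controls gave 89, 96.7 and 88.4 CPM and the treated libraries 107, 130 and 102 CPM. Treated and control libraries were apart at both times. NXP800 raised it by 0.66 on the log2 scale (SE 0.079, edgeR adjusted p = 4.22e-06) at 6 h and 0.31 (SE 0.08, edgeR adjusted p = 0.0035) at 24 h. The difference of the responses, 24 h minus 6 h, was -0.35 (SE 0.11, edgeR adjusted p = 0.032). That call did not hold with scaling by library size only (-0.269, adjusted p = 0.139). Nor did it hold without the DMSO library of replicate 2 at 6 h (-0.316, adjusted p = 0.0766) or at 24 h (-0.304, adjusted p = 0.0802), without the NXP800 library of replicate 1 (-0.316, adjusted p = 0.0811) or 2 (-0.35, adjusted p = 0.0568) at 6 h, or without that of replicate 1 (-0.308, adjusted p = 0.0705) or 3 (-0.278, adjusted p = 0.078) at 24 h.

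Ordered by level per kilobase of canonical transcript, *PPP1R15A* was first of the members in each condition, at 47.6 ± 2.67 CPM per kb (SD, n = 3) in DMSO and 276 ± 40.6 under NXP800 at 6 h. At 24 h in DMSO its level of 29.5 ± 4.25 overlapped that of *GCN1*, 29.1 ± 1.15, and under NXP800 it was 137 ± 27.1. *PPP1R15B*, at 17 ± 0.665, stood below *EIF2AK4* in DMSO at 6 h and, at 26.8 ± 1.13, above *GCN1* under NXP800. *GCN1*, *EIF2AK1* and *EIF2AK4* followed *PPP1R15A* in DMSO at 6 h and overlapped one another. Of the lower members in that condition, *EIF2AK2* overlapped *DELE1* and *IMPACT* overlapped *OMA1*, and *EIF2AK3* was below all others. This order, too, depends on the length used. With all exons joined, *PPP1R15A* in DMSO at 24 h, at 20.2 ± 2.91, overlapped *EIF2AK1* at 21.1 ± 0.394 and lay below *GCN1* at 26.1 ± 1.04, while it stayed first in the other conditions. In DMSO at 6 h *EIF2AK4*, at 9.61 ± 0.164, was then apart from *EIF2AK1* at 16.9 ± 1.14 and *GCN1* at 20 ± 2.22, which still overlapped.

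Ratios of 2 members within a library do not depend on library scaling, and they compare each kinase with its partners. The log2 ratio of *EIF2AK4* to its antagonist *IMPACT* went from 2.52 ± 0.064 in DMSO (SD, n = 3) to 1.38 ± 0.096 under NXP800 at 6 h, a change to 0.452 of the control ratio, and from 3.17 ± 0.26 to 2.26 ± 0.3 at 24 h, to 0.53 of it. The ratio of *EIF2AK4* to *GCN1* changed by -0.44 and -0.31 and that of *GCN1* to *IMPACT* by -0.71 and -0.61 at 6 h and 24 h. For *EIF2AK1* against its activator *DELE1* the changes were -0.75 and -0.67. *EIF2AK4* was thus lower relative to both its activator *GCN1* and its antagonist *IMPACT*, and *EIF2AK1* relative to *DELE1*. The ratio of *EIF2AK1* to *OMA1* was not examined.

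The ratio of *EIF2AK2* to *EIF2AK4* changed by 0.24 at 6 h and 0.91 at 24 h, and that of *EIF2AK3* to *EIF2AK4* by 0.58 and 0.88. *DELE1* to *OMA1* changed by 0.62 and 0.23, where leaving out each library gave 0.409 to 0.777 at 6 h and -0.035 to 0.494 at 24 h, the negative value without the DMSO library of replicate 3. For *PPP1R15A* to *PPP1R15B* the log2 ratio was 0.32 ± 0.032 in DMSO and 2.19 ± 0.15 under NXP800 at 6 h, and -0.41 ± 0.29 and 1.50 ± 0.15 at 24 h, or 3.66 and 3.76 times the control ratio. Of the 16 comparisons, 8 pairs at 2 times, 14 had groups that did not overlap, each with a two-sided exact permutation p = 0.1 (adjusted p = 0.114), the smallest that 3 against 3 libraries allow, so none can pass 0.05. The others were *GCN1* to *IMPACT* at 24 h (exact p = 0.2, adjusted p = 0.213) and *DELE1* to *OMA1* at 24 h (exact p = 0.7, adjusted p = 0.7). These tests take no account of the pairing by replicate number. Within pairs, *GCN1* to *IMPACT* at 24 h changed by -0.612, -0.621 and -0.588, although its groups overlapped. The cause of that overlap was not tested. In 15 of the 16 comparisons all 3 pairs had the same sign, and the other was *DELE1* to *OMA1* at 24 h, with 0.431, -0.074 and 0.337. An exact test over 3 pairs cannot go below p = 0.25. How often other gene pairs are without overlap or share 1 sign was not computed, so these counts have no background. Of single genes, 62% at 6 h and 59.1% at 24 h were without overlap. Several pairs also share a member, such as *EIF2AK4*, and are not independent.

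**Figure D4:**
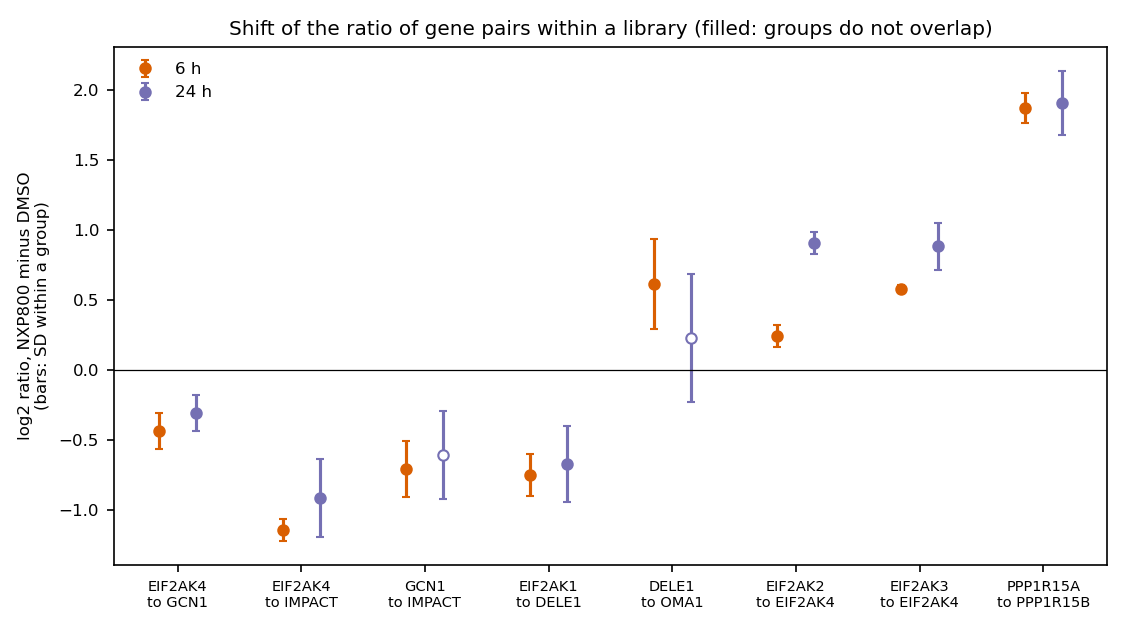
Change of the log2 ratio between pairs of members within a library, NXP800 minus DMSO (y axis), for 8 pairs (x axis) at 6 h and 24 h. Points are differences of means of 3 libraries, bars the SD within a group, and filled points mark groups without overlap. *PPP1R15A* to *PPP1R15B* stands at 1.87 and 1.91, and *EIF2AK4* to *IMPACT* lowest at -1.15 and -0.92.

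The substrate and its exchange factor moved in both directions. Of 8 subunits of eIF2 and eIF2B, 3 rose and 2 fell at 6 h (median log2 fold change 0.02, against -0.05 over all tested genes), and 3 rose and 4 fell at 24 h (median -0.16, against -0.003 over all tested genes). The shares at 6 h were 37.5% higher and 25% lower, beside 25% and 27.8% of all tested genes. At 24 h they were 37.5% and 50%, beside 27.5% and 28.6%. With scaling by library size only, 2 fell at 24 h. *EIF2S1*, which encodes eIF2α itself, rose at 6 h by 0.28 on the log2 scale, from 417 ± 19.6 CPM in DMSO to 505 ± 18.6 under NXP800 (edgeR adjusted p = 0.00305) and at 24 h by 0.33, from 319 ± 14.6 to 400 ± 33.4 CPM (edgeR adjusted p = 0.000833). *EIF2S2*, the beta subunit, rose by 0.72 and 0.36, and *EIF2S3*, the gamma subunit, fell by 0.20 and 0.34. The responses of *EIF2S2* differed by -0.36, 24 h against 6 h (edgeR adjusted p = 0.0131).

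Among the subunits of eIF2B, *EIF2B1* fell at both times, by 0.26 and 0.31. *EIF2B2* rose by 0.33 at 6 h (log2 fold change -0.09 at 24 h, edgeR adjusted p = 0.379), and *EIF2B4* rose by 0.39 at 24 h (-0.07 at 6 h, edgeR adjusted p = 0.593). Those responses differed between the times by -0.42 for *EIF2B2* (edgeR adjusted p = 0.0179) and 0.46 for *EIF2B4* (edgeR adjusted p = 0.0332). *EIF2B3* and *EIF2B5* fell at 24 h, by 0.27 and 0.23.

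The catalytic subunits of PP1, which GADD34 and CReP direct, did not follow them as a group. *PPP1CB* rose by 0.32 at 6 h and 0.45 at 24 h, whereas *PPP1CA* fell by 0.28 and 0.36 and *PPP1CC* by 0.45 and 0.60. So 1 of 3 rose and 2 fell at each time, 33.3% and 66.7%. Of all tested genes, 25% were higher and 27.8% lower at 6 h, and 27.5% and 28.6% at 24 h.

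Of 15 modulators of the kinases, *DELE1* and *OMA1*, 4 rose and 2 fell at 6 h (median log2 fold change -0.05) and 5 rose and 3 fell at 24 h (median 0.10). The shares at 6 h were 26.7% higher and 13.3% lower, beside 25% and 27.8% of all tested genes. At 24 h they were 33.3% and 20%, beside 27.5% and 28.6%. With scaling by library size only, 8 rose at 24 h. *UBR4* and *KCMF1*, which form a ligase complex that removes HRI and DELE1 and so ends the mitochondrial signal, rose at both times. *UBR4* gave 105 ± 15 CPM in DMSO and 141 ± 13.8 under NXP800 at 6 h (0.43, edgeR adjusted p = 0.00096) and 167 ± 3.04 and 248 ± 14.4 at 24 h (0.57, edgeR adjusted p = 6.6e-05). *KCMF1* rose by 0.59 and 0.43. *HSPA5*, the ER chaperone that binds PERK, rose from 643 ± 35.7 to 1010 ± 74.6 CPM at 6 h and from 842 ± 181 to 1750 ± 196 CPM at 24 h.

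*DNAJC3*, which encodes an inhibitor of PKR and PERK, fell by 0.26 at 6 h while its 24 h value was 0.21 (edgeR adjusted p = 0.0524), and these responses differed by 0.47 (edgeR adjusted p = 0.0109). *MAP3K20*, the kinase that senses collided ribosomes, rose by 0.50 at 6 h, with -0.09 at 24 h (edgeR adjusted p = 0.248) and a difference of -0.59 (edgeR adjusted p = 0.000255). *TARBP2*, an inhibitor of PKR, fell by 0.25 and 0.47. *ADAR*, which edits double-stranded RNA, and *NCK1*, an adaptor, rose at 24 h by 0.16 and 0.43. *RWDD1* and *OPA1*, a substrate of OMA1, fell at 24 h by 0.32 and 0.29. The other members of the list, *PRKRA*, *RPLP0*, *RPLP1*, *RPLP2* and *YME1L1*, passed the threshold at neither time.

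**Figure D5:**
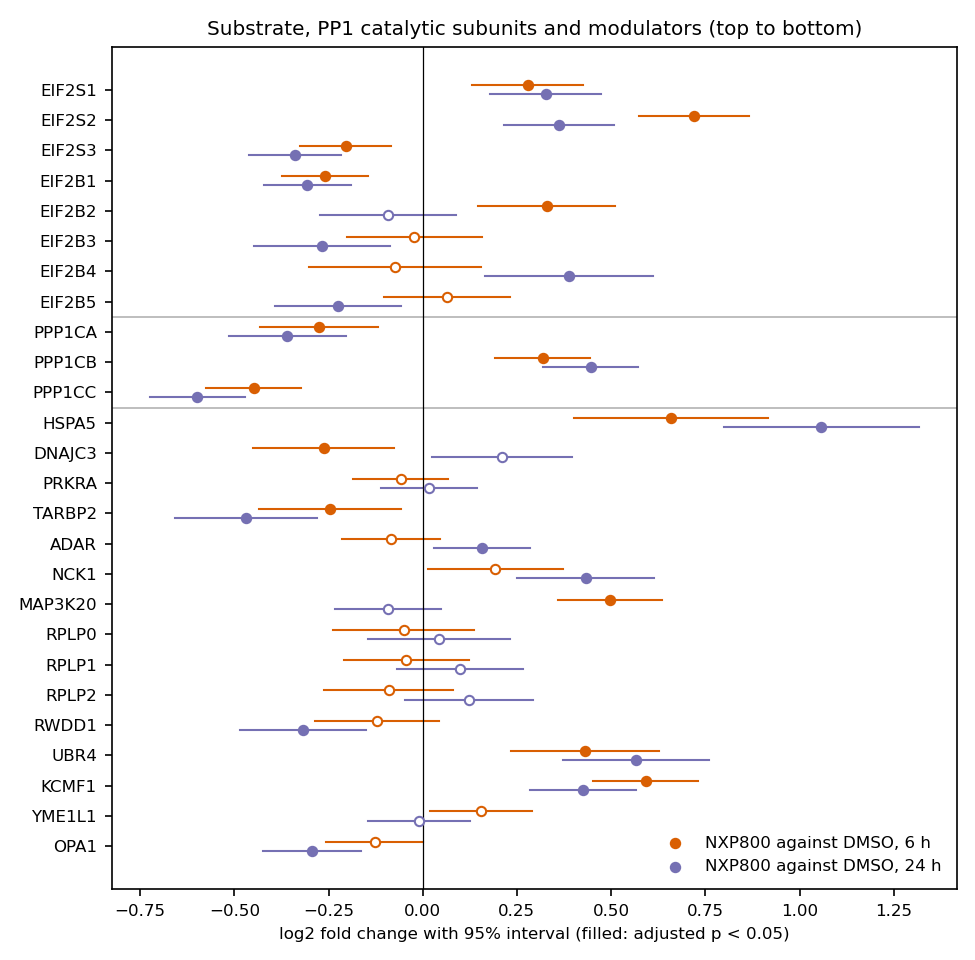
Log2 fold change of NXP800 against DMSO (x axis) with 95% intervals for the subunits of eIF2 and eIF2B, the catalytic subunits of PP1 and the modulators (y axis, top to bottom, separated by grey lines). Filled points passed the adjusted threshold. *HSPA5* lies farthest right, at 1.06 at 24 h, and *PPP1CC* farthest left, at -0.60 at 24 h.

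The genes that the pathway controls give the setting for these values. Of 16 genes of ISR output 15 were tested, 14 of which rose and 1 fell at each time, with medians on the log2 scale of 2.51 at 6 h and 2.12 at 24 h. The shares were 93.3% higher and 6.67% lower at each time. Of all tested genes, 25% were higher and 27.8% lower at 6 h, and 27.5% and 28.6% at 24 h. The 3 largest rises at 6 h were those of *SESN2* (4.40), *CTH* (4.26) and *TRIB3* (4.18), and the gene that fell was *ATF5* (-1.04). *TRIB3* (3.73), *SESN2* (3.19) and *DDIT3* (3.01) led at 24 h, when *ATF5* stood at -0.89. The 5 genes of the list whose responses differed between the times, *ATF3*, *SESN2*, *DDIT4*, *CTH* and *CEBPG*, all responded less at 24 h, and the replicate block called 8. Without the block that was 33.3% of the tested genes of the list, beside 13.8% of all tested genes called lower. At 6 h the response of *PPP1R15A*, 2.54, was close to the median of the list.

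*EIF2AK2* was set beside the interferon-stimulated genes, to which it belongs by its regulation. Of 26 tested genes of that list, 2 rose and 9 fell at 6 h and 3 rose and 12 fell at 24 h (median log2 fold change -0.36 and -0.34), and with the replicate block 14 fell at 6 h. The shares were 7.69% higher and 34.6% lower at 6 h, beside 25% and 27.8% of all tested genes, and 11.5% higher and 46.2% lower at 24 h, beside 27.5% and 28.6%. *IFIT1* fell by 2.69 and 3.31, from levels of only 1.34 ± 0.245 and 1.95 ± 0.224 CPM. *PARP9* (-1.13) and *OAS3* (-1.01) fell most after it at 6 h, and *OASL* (-2.31) and *IFI6* (-1.82) at 24 h. *ISG20* rose by 0.76 and 2.04, *IRF7* by 0.69 at 6 h, and *DTX3L* and *IFIT5* by 0.58 and 0.44 at 24 h. Mean DMSO levels were low for others of these as well. At 6 h they were 2.62 CPM for *PARP9*, 2.79 for *IRF7* and 1.36 for *ISG20*, and at 24 h 2.25 for *OASL*, 4.43 for *IFI6* and 0.925 for *ISG20*. *OAS3* had 11.9 CPM at 6 h, and *DTX3L* and *IFIT5* had 8.98 and 19.9 at 24 h. *EIF2AK2* had 70.6 and 60.8 CPM. *EIF2AK2* was thus lower at 6 h, where 9 of the 26 fell and 2 rose, and higher at 24 h, where 12 fell and 3 rose, so that at 24 h its direction was opposite to that of most called genes of the list. The difference of the responses was called higher for 4 genes of the list, as it was for *EIF2AK2*. These were *ISG20* (1.27), *IFIT3* (1.09), *DTX3L* (0.72) and *IFIT5* (0.53). It was called lower for 2, *OASL* (-1.76) and *IFI6* (-1.39). Of these, *IFIT3* was called lower at 6 h (-0.91), without a call at 24 h (0.18, edgeR adjusted p = 0.426). For the difference, 15.4% of the tested list was higher and 7.69% lower, beside 12% and 13.8% of all tested genes.

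For *EIF2AK3* the matching list held 20 sensors and chaperones of the endoplasmic reticulum, *HSPA5* and *DNAJC3* included. Here 7 rose and 8 fell at 6 h (median log2 fold change -0.07) and 10 rose and 7 fell at 24 h (median 0.22). The shares at 6 h were 35% higher and 40% lower, beside 25% and 27.8% of all tested genes. At 24 h they were 50% and 35%, beside 27.5% and 28.6%. *ERN1*, the gene of the sensor IRE1α, rose by 2.61 at 6 h and 1.63 at 24 h, *XBP1* by 2.04 and 1.83 and *DNAJB9* by 1.07 and 1.55. *PDIA4* fell by 1.00 and 0.66, *SDF2L1* by 0.86 and *MANF* by 0.69 at 6 h, and *CALR* by 1.08 and *PDIA6* by 0.64 at 24 h. The difference of the responses, 24 h minus 6 h, was -0.97 for *ERN1* (edgeR adjusted p = 0.000117), whereas for *EIF2AK3* it was 0.45. It was positive as well for *SEL1L*, at 0.45 (edgeR adjusted p = 0.00122), and *HYOU1*, at 0.39 (edgeR adjusted p = 0.00981), both of the protein quality control of this compartment. Counts of the list for this difference were 3 higher and 1 lower, and 9 and 3 with the replicate block. Without the block that was 15% and 5%, beside 12% and 13.8% of all tested genes.

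Across the 12 libraries, the genes whose log2 CPM followed a member most closely were picked from the 11884 tested genes whose average log2 CPM reached 1. The libraries share 4 conditions, so these correlations largely repeat the group means and are given as a description. For *EIF2AK2* they were *SHISAL1* (Pearson r = 0.951), *ZBTB14* (0.936) and *ARMCX1* (0.932), each with a fall at 6 h and a rise at 24 h. For *EIF2AK4* they were *B4GAT1* (0.99), *PCDHGC3* (0.989) and *ADORA1* (0.988), whose log2 fold changes were below that of *EIF2AK4* at both times, for *ADORA1* -3.18 and -2.19. For *PPP1R15A* they were *CREB5* (0.995), *LRIF1* (0.995) and *RND3* (0.994), which rose at both times, *CREB5* by 2.34 and 1.75.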

How the data were processed

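Poly(A) RNA of a strand-specific library kit was sequenced as paired ends. The deposited counts are raw reads per RefSeq gene that the authors made with fastp 0.20.1, STAR 2.7.5a (hg38) and HTSeq 0.12.4, tools and versions per the submitters' processing notes. The strand setting and counting mode are not given in the sources used here. Rows that name no gene (no feature 2.73 to 8.14%, several places 1.86 to 3.37%, ambiguous 2.10 to 2.43%) entered neither library sizes nor tests.

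Groups came from the sample titles. The tests used edgeR 4.0.16 in R 4.3.3: filterByExpr, TMM scaling and the quasi-likelihood test in 1 model of the 4 conditions (8 residual degrees of freedom, common dispersion 0.007231), with Benjamini-Hochberg adjustment over 15979 genes. NXP800 was compared with DMSO within each time, and the difference of these responses, 24 h minus 6 h, was tested as a contrast. CPM use TMM-scaled library sizes. Pair ratios used counts plus 1. At this depth the spread between libraries exceeded counting error for most members. Counts of replicate libraries differed beyond sampling error (chi-square per degree of freedom 7.36 to 26.3), so none was counted as a duplicate. Intervals cover the spread between libraries and are not adjusted.

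Libraries of a time with equal replicate numbers were taken as pairs. After removal of group means, r across genes between treated and control libraries was 0.159 to 0.329 for equal numbers, and for unequal numbers -0.268 to 0.058. The titles give the numbers only and do not say what libraries of equal number share, so the pairing rests on these correlations.

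The members and lists were chosen with earlier results of these data known. Named were all members, all genes of the lists of eIF2, PP1 and modulators, and by rule the 3 largest called rises and falls of each other list at each time, and for *EIF2AK2*, *EIF2AK4* and *PPP1R15A* the 3 genes with the highest correlation. Genes of those lists with a called difference between the times were named after their values were seen. Untested for low counts were *NUPR1* of the ISR list and *OAS1*, *OAS2* and *IFI27* of the interferon list.

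Alternatives were DESeq2 1.42.0 size factors or Wald test, library size only, no filter, a minimum of 10 counts per library, a separate fit of each time, the replicate block, each library left out, adjusted p below 0.01 and, added after seeing the data, the block with GC and length offsets (known for 14694 genes, 92% of those tested) and joined exons for levels per length. The procedures were tested on simulated data. Positions are RefSeq GRCh38.p14, and exon overlaps and lengths come from GENCODE.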

Additional observations from a re-analysis of the deposited data

Results flagged for a closer look

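The responses of 3 members differed between the times in edgeR's test of the difference itself. Whether treatment time or another difference between the libraries of the times underlies this was not tested. The log2 fold change of *EIF2AK2* was higher at 24 h than at 6 h by 0.803 (SE 0.097, adjusted p = 2.5e-05). It was a fall of 0.375 at 6 h and a rise of 0.428 at 24 h, each seen in 3 of 3 same-number pairs. That of *EIF2AK3* was higher at 24 h by 0.446 (SE 0.12, adjusted p = 0.0145). For *PPP1R15B* the difference was -0.346 (SE 0.11, adjusted p = 0.032), a call that was lost with library size only (adjusted p = 0.139) and without any 1 of 6 of the 12 libraries (highest adjusted p = 0.0811), whereas the calls of *EIF2AK2* and *EIF2AK3* held with each library left out. Libraries that stand apart within a condition were not tested for, since each condition has 3.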

How the results depend on the processing

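Over the members' fold changes and the alternatives tried, 431 values kept their direction and their side of the threshold, 15 lost a call, 10 gained one and 14 turned in sign. The values that turned were without a call in each case. With each library left out, the difference of responses ranged from -0.038 to 0.064 for *EIF2AK1*, from -0.053 to 0.103 for *GCN1*, from -0.183 to 0.099 for *DELE1* and from -0.215 to 0.041 for *IMPACT*, and the 24 h value of *OMA1* from -0.007 to 0.251. The difference was -0.09 for *GCN1* with the replicate block plus GC and length offsets and 0.013 for *DELE1* with library size only. The causes were not tested.

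The count of members whose log2 fold change was called higher at 24 h than at 6 h was 2, and 1 at an adjusted p below 0.01. The count called lower at 24 h than at 6 h was 1, and 0 with library size only. It was 2 with no filter on low counts, 0 at an adjusted p below 0.01 and 0 to 2 with each library left out. *PPP1R15A* was the added one with no filter (-0.299, adjusted p = 0.0404). With no filter *GCN1* passed at 6 h (-0.189, adjusted p = 0.0438), and with only the 6 libraries of 24 h *DELE1* did not pass (0.356, adjusted p = 0.0525). Members called at 6 h ranged from 3 to 4 higher and 3 to 4 lower with each library left out, and at 24 h from 4 to 6 higher, with 2 lower in each.

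Replicate numbers as a block gave 4 higher and 4 lower at 6 h, 6 and 3 at 24 h, and 2 and 1 for the difference, and besides *GCN1* at both times changed no call of a member. Over all genes the block called 9953 in place of 8435 at 6 h, 10411 in place of 8953 at 24 h and 6284 in place of 4129 for the difference. For the difference, the block also called 4 subunits of eIF2 and eIF2B lower in place of 2, 4 modulators higher in place of 2, and 4 interferon-stimulated genes lower in place of 2. Among the lists, the counts for the difference moved with other settings too: 1 modulator was called higher with DESeq2's size factors or test and 4 with library size only, and endoplasmic reticulum genes called higher were 8 with library size only or no filter and 5 with DESeq2's test or the minimum count, in place of 3. Interferon-stimulated genes called lower were 1 with library size only or the minimum count, in place of 2. With GC and length offsets added to the block, 9 ISR genes, 5 interferon-stimulated genes and 4 subunits of eIF2 and eIF2B were lower for the difference, and 4 modulators in place of 2 were lower at 6 h. At an adjusted p below 0.01, the subunits of eIF2 and eIF2B had 2 lower at 24 h in place of 4 and the ISR genes 3 lower for the difference in place of 5. *OMA1*, with at most 350 reads, is the member whose precision depth limits most.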
